A study of Mus musculus with 34 samples.

Results

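Transcript levels of 30 genes of sterol and fatty acid synthesis were followed in bulk RNA-seq of mouse pancreatic islets. They were listed by name, by their place in these pathways, among 48709 genes in the count table. All 30 are protein-coding and were found in the table, and all 30 passed the filter on low counts that left 17616 genes for testing. By role they comprise 7 enzymes of the mevalonate steps, 11 enzymes that turn farnesyl groups into cholesterol, 4 regulators and sterol carriers, 7 enzymes of fatty acid synthesis and desaturation, and the phosphatidate phosphatase Lpin1.

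The study followed the response of islets to partial loss of beta cells. Every mouse, untreated controls included, carried the genotype labelled RIP-DTR HTZ, in which the diphtheria toxin receptor stands under the rat insulin promoter, so that diphtheria toxin (DT) kills cells that use this promoter. In the time series DT mice carried the label 5 DPA or 30 DPA, read as 5 and 30 days after ablation (DT 5 DPA and DT 30 DPA, n = 4 each); their untreated counterparts are given neither time nor diet (CTRL, n = 3). The 10-week series had diets labelled SD and HFD. Streptozotocin at 75 mg/kg, a toxin that beta cells take up, had been given to STZ SD and STZ HFD (n = 4 each) and DT to DT HFD (n = 3) and DT SD (n = 4), while CTRL HFD (n = 4) and CTRL SD (n = 3) were untreated. Ages are not stated in the labels, and nothing says that replicates are separate animals, so p-values measure the spread between these samples, which may be technical. The 34 libraries held 11083117 to 18918348 counts each, and 1 of them, whose title and treatment label differ, entered no comparison.

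Sterol synthesis begins with acetyl-CoA, which is condensed and reduced to mevalonate and built up to farnesyl diphosphate. A pair of farnesyl groups is joined to squalene, which is oxidised, closed to lanosterol and trimmed step by step to cholesterol. The genes of both pathways are classic targets of the SREBP transcription factors, encoded by Srebf1 and Srebf2, which are held in the endoplasmic reticulum by INSIG proteins when sterols are plentiful. In beta cells cholesterol is a component of plasma and insulin granule membranes, and acetyl-CoA for both pathways also comes from glucose through citrate.

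Promoter sequences, from RefSeq on GRCm38.p6, were found for 24 of the 30 genes (29 windows of 300 bases, 250 before to 50 after a start site). Those of 4 genes are shown because their transcripts moved in the comparisons that follow: Hmgcs1 (chr13:119690101-119690400, plus strand), which makes HMG-CoA at the entry to the pathway, Msmo1 (chr8:64733529-64733828, minus strand), which oxidises methyl sterols, Insig1 (chr5:28071162-28071461, plus strand), the sterol-dependent brake on SREBP, and Idi1 (chr13:8885356-8885655, plus strand), which isomerises the isoprenoid building block. Capitals mark matches, on either strand, to TCACNCCAC, a form of the sterol regulatory element bound by SREBP, and to CCAAT, bound by the NF-Y factor that acts with it; on the minus strand CCAAT reads ATTGG.
Hmgcs1: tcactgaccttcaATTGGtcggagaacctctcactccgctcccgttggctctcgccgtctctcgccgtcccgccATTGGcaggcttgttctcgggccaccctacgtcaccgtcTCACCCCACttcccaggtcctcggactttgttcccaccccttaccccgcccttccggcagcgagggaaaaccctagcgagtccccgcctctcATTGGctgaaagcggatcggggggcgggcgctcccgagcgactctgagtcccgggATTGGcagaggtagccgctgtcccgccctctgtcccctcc
Msmo1: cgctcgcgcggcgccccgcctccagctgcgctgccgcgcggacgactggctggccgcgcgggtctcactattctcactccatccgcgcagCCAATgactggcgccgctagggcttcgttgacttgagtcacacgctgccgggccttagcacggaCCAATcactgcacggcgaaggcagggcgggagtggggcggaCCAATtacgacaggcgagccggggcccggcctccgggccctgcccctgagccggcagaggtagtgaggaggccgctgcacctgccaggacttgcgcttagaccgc
Insig1: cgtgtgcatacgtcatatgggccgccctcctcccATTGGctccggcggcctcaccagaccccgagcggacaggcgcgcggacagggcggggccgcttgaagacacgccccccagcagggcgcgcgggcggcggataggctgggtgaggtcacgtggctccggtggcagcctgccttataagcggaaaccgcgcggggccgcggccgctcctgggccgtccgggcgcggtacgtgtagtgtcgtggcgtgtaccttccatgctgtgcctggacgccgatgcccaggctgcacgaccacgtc
Idi1: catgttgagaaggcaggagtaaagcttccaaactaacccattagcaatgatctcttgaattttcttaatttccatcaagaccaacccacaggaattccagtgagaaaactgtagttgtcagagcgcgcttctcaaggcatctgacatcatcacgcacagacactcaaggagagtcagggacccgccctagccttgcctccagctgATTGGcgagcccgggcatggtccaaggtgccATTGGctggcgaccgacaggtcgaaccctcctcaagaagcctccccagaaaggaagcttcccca

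Only Hmgcs1 held TCACNCCAC among the 24 genes, as TCACCCCAC 137 bases before the start; this was 3.45% of the members' windows against 1.24% of all 32851 promoter windows. TCACNCGAC, another form of the element, occurred in none of the members' windows and in 0.31% of all. CCAAT was present in 20 of 24 genes (72.4% of windows against 37.4% of all), with 4 matches in Hmgcs1, 3 in Msmo1, 2 in Idi1 and 1 in Insig1. GGGCGG, the GC box bound by SP1, was present in 19 genes (72.4% of windows against 35.7% of all), and the E-box CACGTG in 4 genes (13.8% against 7.15%). All motifs were searched on both strands, and none contains another. A match is a run of letters in a window of fixed length and not a measured site.

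Per transcript length, using the deposited TPM values, the most abundant of the 30 was Acly, the enzyme that splits citrate to acetyl-CoA, with a median level of 218.6 TPM over 33 libraries. The desaturases Scd2 and Scd1 followed at 73.7 and 51.4 TPM, then Insig1 at 44.8 TPM and Hmgcs1 at 41.7 TPM. Hsd17b7, a reductase of the late sterol steps, was lowest at 2.67 TPM. All further levels are CPM, counts scaled to library size, which compare samples for 1 gene and not genes with each other. For 17 of the 30 genes the highest of the 9 group means was that of DT 30 DPA, for 5 that of DT HFD and for 3 that of STZ SD. Without DT 30 DPA replicate 2, a library described below, these counts were 10, 8 and 3, and without 9 libraries that hold RNA of neighbouring tissue they were 7, 13 and 0. The ratio of highest to lowest group mean lay between 1.29 for Pmvk, the phosphomevalonate kinase, and 2.60 for Scd2.

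**Figure D1:**
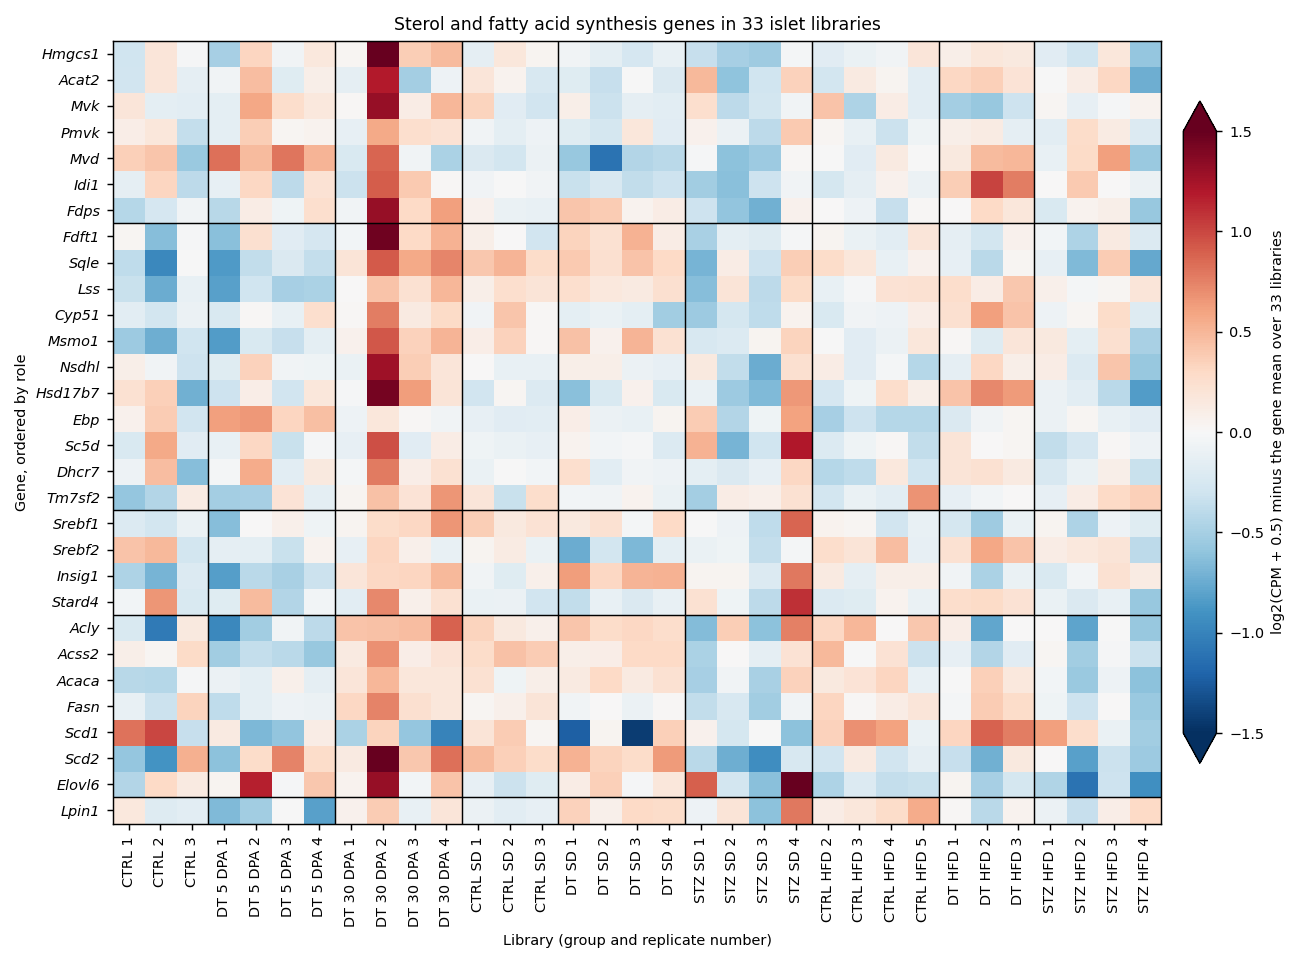
Levels of the 30 genes (rows, by role; lines separate mevalonate steps, squalene to cholesterol steps, regulators and sterol transport, fatty acid synthesis and Lpin1) in 33 libraries (columns, by group), as log2(CPM + 0.5) minus the gene's mean over all libraries; red is above and blue below the mean, and values past the ends of the colour scale take its end colours. DT 30 DPA replicate 2 is red in nearly every row, and STZ SD replicate 4 is the reddest of its group.

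Libraries that stand apart touch these genes directly. DT 30 DPA replicate 2 was the highest of its 4 libraries for 25 of the 30 genes, against 33.91% of all genes, and the median gene stood 0.64 (log2) above the mean of the other replicates. STZ SD replicate 4 was the highest of its group for 27 of 30 genes, against 28.94% of all, with a median of 0.49. Both carried enterocyte markers (Apoa4, Fabp1, Sis and 5 others), with summed levels of 3207 and 18708 CPM. The other libraries with more than 500 CPM were not all high for the 30 genes. Their medians were -0.04 (STZ SD replicate 1, 10391 CPM), -0.07 (CTRL replicate 2) and -0.05 (DT HFD replicate 1). In DT 5 DPA they were -0.28, 0.20 and 0.085 (replicates 1, 2 and 4). The part of this RNA in the levels was not tested. Over all 33 libraries 8 had more than 500 CPM and STZ HFD replicate 4 had 28.7% of its counts in 8 acinar markers. Values without these 9 libraries are given beside some of the results they move. Islet identity was present in each library, since Ins1 and Ins2 never fell under 7779 and 19240 CPM. Adipocyte markers, which would mark a tissue rich in the same enzymes, summed to at most 43.9 CPM. Of the 33 libraries Lep was at 0 in 28, Retn in 11, Adipoq in 6, Cidec in 3, Cidea in 2 and Plin1 in 0. The part of fat tissue in the levels was not tested. In bulk RNA, fewer cells of a type and less RNA per cell cannot be told apart.

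Between 5 and 30 days after DT, 11 of the 30 genes rose and 1 fell (edgeR's quasi-likelihood test, adjusted p under 0.05), while 30.5% of all genes tested were called, 16.5% higher and 13.9% lower. Of the 30, 27 had a fold change above 0, against 51.3% of all genes, and the median log2 fold change was 0.49 against 0.02. An unadjusted p under 0.05 was reached by 18 of 30, against 41.4% of all genes. Groups did not overlap for 8 genes that were higher and 1 that was lower, against 16.8% and 16.5% of all genes. The risers were spread over the pathway: Hmgcs1 and Fdps of 7 mevalonate genes, Fdft1, Sqle, Lss and Msmo1 of 11 later sterol genes, Insig1 of 4 regulators, Acly, Acss2 and Fasn of 7 fatty acid genes, and Lpin1. Ebp, a sterol isomerase of the same late steps, fell. These counts depend on DT 30 DPA replicate 2: without it 7 genes rose and 2 fell, with a median of 0.24, while 12.4% of all genes rose and 11.9% fell. Leaving out all libraries with RNA of neighbouring tissue keeps 1 DT 5 DPA library, and 1 gene was then called higher, beside 0.665% of all genes.

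Insig1 stood at 41.0, 55.1, 51.8 and 58.1 CPM in the 4 libraries at 5 days and at 83.0, 90.8, 91.7 and 103 CPM at 30 days. The groups did not overlap, and here replicate 2 lay inside the range of the others. The log2 fold change was 0.84 (SE 0.16, adjusted p = 0.000538), a 1.79-fold rise. It ranged from 0.74 to 0.90 over 14 other settings, all of which kept the call.

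Of the enzymes, Lss closes the ring of lanosterol. Its 4 values at 5 days were 14.0, 20.3, 17.5 and 17.8 CPM, against 25.0, 33.8, 29.4 and 35.4 CPM at 30 days, again without overlap (log2 fold change 0.83, SE 0.17, adjusted p = 0.000768). Msmo1 read 24.5, 37.7, 34.6 and 40.1 CPM and then 46.2, 84.8, 56.4 and 63.3 CPM (0.87, SE 0.18, adjusted p = 0.00110). The 30-day libraries were all above the 5-day ones, with replicate 2 highest. Sqle, the squalene epoxidase and a rate-limiting step, went from 30.1, 42.1, 46.6 and 42.3 CPM to 62.3, 103, 81.2 and 90.6 CPM, a 2.10-fold rise (log2 1.07, SE 0.23, adjusted p = 0.00147). In the sterol arm 4 of the genes called higher had groups that did not overlap (Insig1, Lss, Msmo1 and Sqle). Non-overlapping higher groups made up 0% of the mevalonate genes, 27.3% of the later sterol genes and 25% of the regulators. The share of all genes was 16.8%. Each of the 4 calls was kept without DT 30 DPA replicate 2. Without the libraries holding RNA of neighbouring tissue, Insig1 alone of these kept its call. That setting leaves 1 DT 5 DPA library and cannot settle whether a call holds.

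Hmgcs1 is a different case. It measured 50.003, 88.7, 68.2 and 79.3 CPM at 5 days and 72.4, 249.9, 91.3 and 98.4 CPM at 30 days, where replicate 2 alone stood far above the rest and the groups overlapped. The log2 change of 0.84 (SE 0.25, adjusted p = 0.0130) dropped to 0.29 (adjusted p = 0.220) without that library. Fdft1, the squalene synthase (0.86, adjusted p = 0.00645), and Fdps, which makes farnesyl diphosphate (0.65, adjusted p = 0.0229), were likewise at 0.46 (adjusted p = 0.0741) and 0.32 (adjusted p = 0.208) without it. Ctsb, a lysosomal protease gene, lies on the opposite strand over 18.3% of the exonic bases of Fdft1, and 26.7% of those of Fdps are shared with Gm43738 on the same strand, so that reads could be assigned either way.

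In the fatty acid arm the gene with the most transcript, Acly, had 303, 415, 572 and 451 CPM at 5 days and 801, 807, 821 and 1094 CPM at 30 days. No 5-day library reached the lowest 30-day one (log2 fold change 1.02, SE 0.28, adjusted p = 0.00794). Acss2, which makes acetyl-CoA from acetate, rose from 15.1, 17.1, 16.5 and 14.6 CPM to 24.2, 35.6, 23.6 and 25.3 CPM (0.78, SE 0.17, adjusted p = 0.00124). Fasn, the fatty acid synthase, rose from 52.5, 62.0, 64.8 and 64.7 CPM to 85.4, 115, 81.5 and 77.3 CPM (0.56, SE 0.14, adjusted p = 0.00517). Neither gene's groups overlapped, and the calls of Acly, Acss2 and Fasn held without DT 30 DPA replicate 2. They did not hold without the libraries holding RNA of neighbouring tissue, where 1 DT 5 DPA library is left. Acaca, the carboxylase before Fasn, also had groups that did not overlap, but its log2 change of 0.34 (SE 0.16) did not pass (adjusted p = 0.115).

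**Figure D2:**
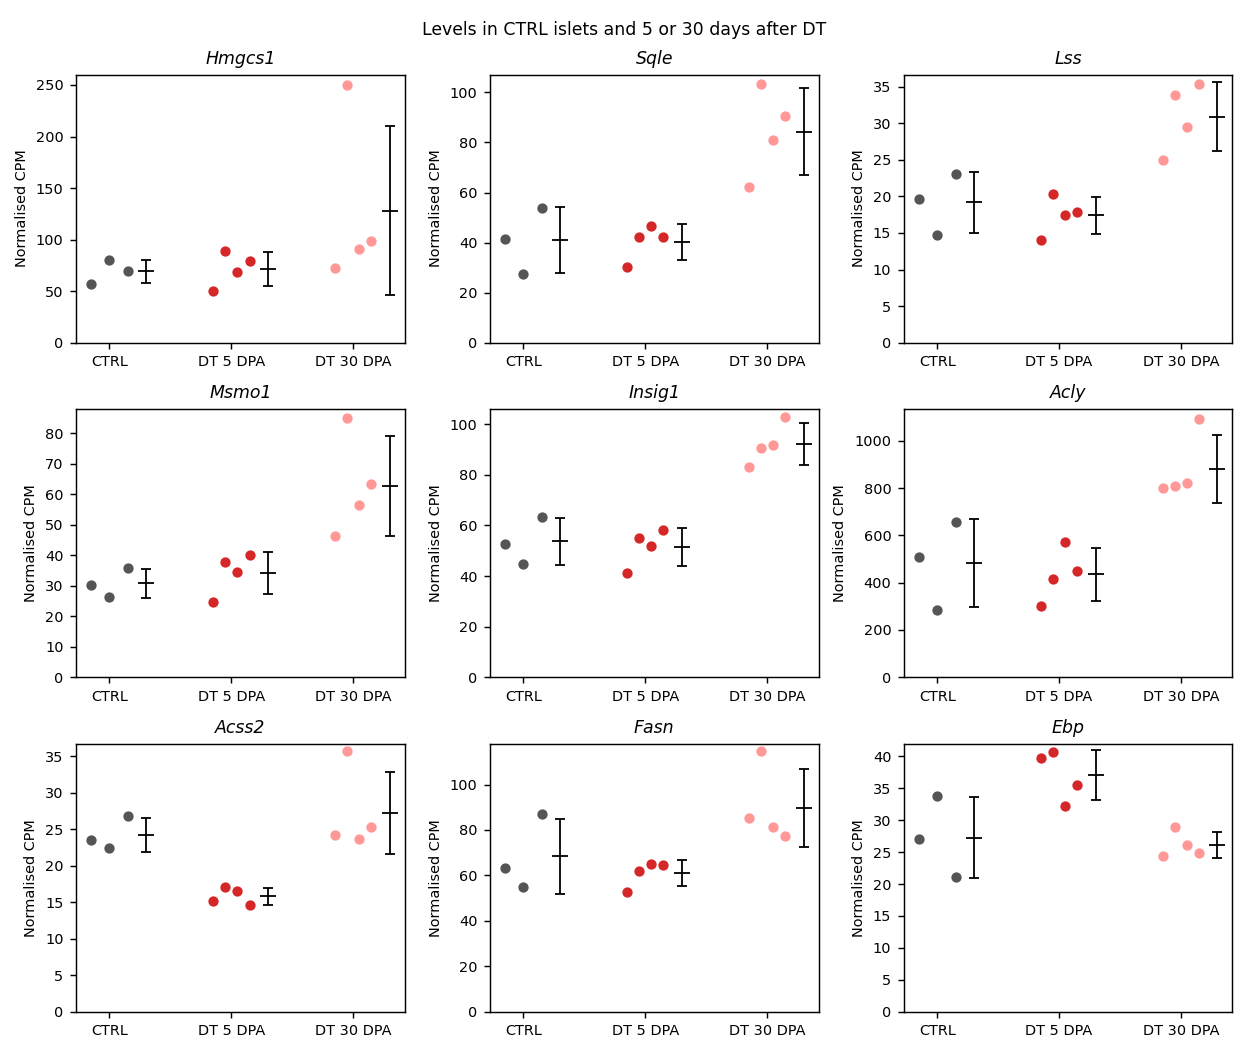
Levels (CPM, linear axis from 0) of 9 of the genes in CTRL, DT 5 DPA and DT 30 DPA; each point is 1 library and the bars are mean and SD. For Insig1, Sqle, Lss, Msmo1, Acly, Acss2 and Fasn every 30-day library is above every 5-day library, for Hmgcs1 one 30-day point at 249.9 CPM stands apart, and Ebp is lower at 30 days.

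Ebp moved the other way, from 39.8, 40.7, 32.3 and 35.5 CPM to 24.5, 29.0, 26.1 and 24.8 CPM, without overlap (log2 fold change -0.51, SE 0.15, adjusted p = 0.0146). Lpin1, which makes diacylglycerol and is also a nuclear co-regulator, rose by 0.62 (SE 0.21, adjusted p = 0.0269). That call was lost in 8 of 14 other settings. The other 18 genes did not pass, with fold changes (log2) between -0.56 for Mvd, the mevalonate diphosphate decarboxylase (adjusted p = 0.130), and 0.78 for Hsd17b7 (adjusted p = 0.0548). Of the transcription factors, Srebf1 was at 41.4, 65.2, 68.3 and 61.6 CPM and then 66.8, 78.2, 80.6 and 102 CPM (0.47, SE 0.19, adjusted p = 0.0627). Srebf2 was at 95.6, 95.0, 83.2 and 109 CPM and then 96.7, 132, 111 and 97.3 CPM (0.19, SE 0.17, adjusted p = 0.407). The ranges of both overlapped between the days, and neither factor passed while Insig1 did; whether the changes differ between these genes was not tested.

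The cell makeup of the islets moved over the same interval. Markers of macrophages summed to 4127 to 6224 CPM at 5 days and 376.0 to 834.1 CPM at 30 days, with 5 of 5 called lower. All 4 mesenchyme markers were also called lower, from 2295 to 3209 CPM down to 637.3 to 843.7 CPM. Markers of beta cells summed to 32259 to 121969 CPM and then 126026 to 306918 CPM, with 7 of 8 called higher. Those of alpha cells went from 9451 to 15407 CPM up to 30083 to 41040 CPM, with 3 of 4 called higher and 1 lower. Of the other lists, 2 of 3 cell cycle markers were lower, 1 of 2 delta cell and 1 of 3 endothelial markers were higher, and 0 of 4 duct markers were called. The part of these shifts in the rise of the 11 genes was not tested.

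At 5 days against CTRL, 0 of the 30 genes were higher and 1, Acss2, was lower, while 5.39% of all genes were called, 3.8% higher and 1.59% lower. The median log2 fold change was 0.06 against -0.05 for all genes. Fold changes of 18 genes were above 0 (44.9% of all genes), and 4 of 30 had an unadjusted p under 0.05 (19.1%). The shares called higher and at an unadjusted p under 0.05 were below those of all genes. The share above 0 was larger, at 60%, and the share called lower (3.33%) rests on 1 gene. Acss2 read 23.4, 22.4 and 26.8 CPM in CTRL and 15.1, 17.1, 16.5 and 14.6 CPM at 5 days (log2 fold change -0.61, SE 0.18, adjusted p = 0.0383). The groups did not overlap, yet the call was lost in 9 of 13 other settings, among them the omission of CTRL replicate 1 or 3 or of any 1 DT 5 DPA library, with adjusted p between 0.0539 and 0.143 in these. Scd1, the main stearoyl-CoA desaturase of liver and fat, was at 237, 271 and 106 CPM in CTRL and 148, 83.9, 89.2 and 145 CPM at 5 days (-0.81, SE 0.38, adjusted p = 0.234). All 5 macrophage markers and 3 of 4 mesenchyme markers were called higher at 5 days, from sums of 528 to 1496 CPM and 546 to 915 CPM in CTRL to the 5-day sums given above. Their part in these values was not tested.

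At 30 days against CTRL, 26 of the 30 genes were above 0 (48.5% of all genes), and the median log2 fold change was 0.52 against -0.02. Under the adjusted threshold 1 was called, Msmo1, which was higher, with 0.233% of all genes (0.176% higher); at an unadjusted p under 0.05 there were 17 of 30, against 25.3% of all. This comparison shares the DT 30 DPA libraries with that of 30 against 5 days, and the CTRL libraries with that of 5 days against CTRL, so the 3 do not give independent evidence. Msmo1 read 30.1, 26.4 and 35.8 CPM in CTRL, all under the lowest 30-day library at 46.2 CPM (1.03, SE 0.20, adjusted p = 0.04999). Its adjusted p sits at the threshold, and 8 of 13 other settings put it above.

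Next to it, Sqle was at 41.6, 27.6 and 54.0 CPM in CTRL, all below the 62.3 to 103 CPM of the 30-day libraries, and its log2 change of 1.04 (SE 0.25) had an adjusted p of 0.0516. Insig1, at 52.7, 44.9 and 63.5 CPM in CTRL, had 0.78 (SE 0.18, adjusted p = 0.0502), also without overlap. For 9 of the 30 genes every 30-day library was above every CTRL library, against 7.5% of all genes. Besides those 3, they were Fdps, Lss, Cyp51, Srebf1, Acaca and Acly. Hmgcs1 (57.2, 80.1 and 69.9 CPM in CTRL) had 0.89 (SE 0.27, adjusted p = 0.0677), and its groups overlapped. Fasn was at 63.4, 54.8 and 86.9 CPM in CTRL (0.39, SE 0.16, adjusted p = 0.118).

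How many genes passed here turned on single libraries. Without CTRL replicate 3 there were 14 calls, 13 higher and 1 lower (Scd1, -1.26, adjusted p = 0.0231), and 23.7% of all genes were called too. Without DT 30 DPA replicate 1 there were 8 (3.63% of all genes), and without replicate 3 there were 4 (1.35%). There were 0 when DT 30 DPA replicate 4 or 2 was omitted, and 0 when CTRL replicate 2 or 1 was, with 0% of all genes in each of these. The median of the 30 genes was 0.26 without DT 30 DPA replicate 2, and 0.50 to 0.59 without any other of these libraries. DESeq2's Wald test called 11 genes, all higher, and 10.5% of all genes.

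The group means of Scd1 and Scd2, desaturases that both make oleate, were highest in different groups, DT HFD for Scd1 and DT 30 DPA for Scd2. A difference between these genes was not tested. In the first comparison neither was called, with Scd2 at 128, 237, 330.0 and 238 CPM at 5 days and 216, 567, 262 and 349 CPM at 30 days (0.58, SE 0.29, adjusted p = 0.140; -0.29 without libraries holding RNA of neighbouring tissue), and Scd1 at 97.1, 170.1, 89.9 and 66.8 CPM at 30 days (-0.14, SE 0.35, adjusted p = 0.792; 0.029 without DT 30 DPA replicate 4). Scd1 was set beside the sum of 5 lymphocyte markers. In CTRL, values of 237, 271 and 106 CPM stood beside marker sums of 1042, 1312 and 189.3 CPM. In DT SD, 57.2, 139, 49.8 and 173 CPM stood beside 68.7, 407.3, 52.1 and 509.4 CPM. In both groups the libraries with high sums were those with high Scd1. DT 30 DPA did not follow this, since its highest Scd1 value, in replicate 2, stood beside a sum of 159 CPM, and the sums of replicates 1, 3 and 4 were 367, 336 and 152 CPM. Within STZ SD, Elovl6, which lengthens palmitate, was highest in the libraries with enterocyte markers, at 49.8 and 78.3 CPM in replicates 1 and 4. Replicates 2 and 3 held 21.8 and 16.9 CPM. Not all libraries with these markers were high. CTRL replicate 2 and DT HFD replicate 1 had marker sums of 5568 and 2482 CPM. Elovl6 reached at most 32.7 CPM in CTRL and 27.2 CPM in DT HFD. The part of these cells in the levels was not tested.

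**Figure D3:**
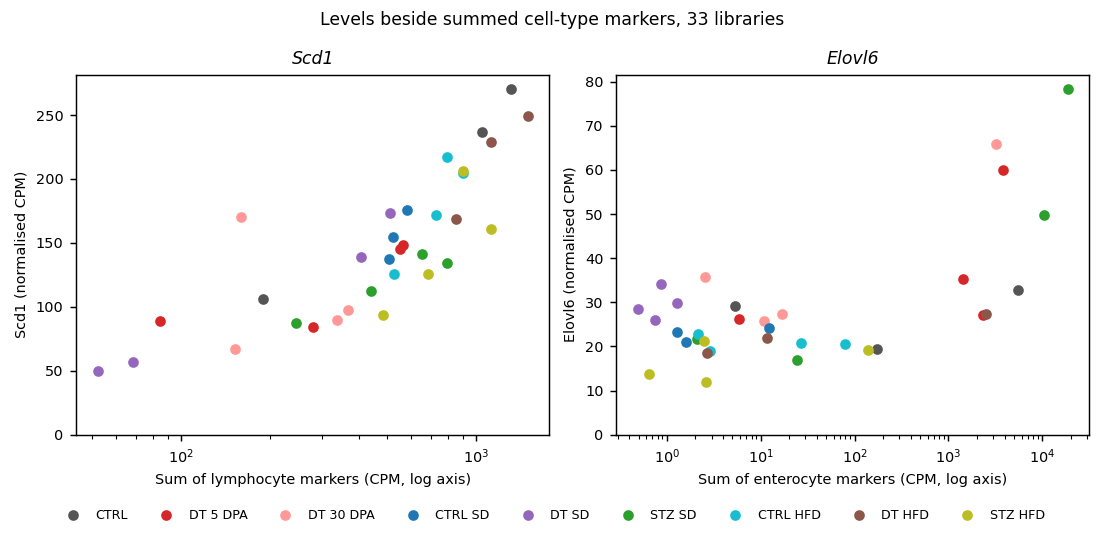
Levels of Scd1 and Elovl6 (CPM, linear axes) against the summed CPM of lymphocyte and enterocyte markers (log axes) in 33 libraries, coloured by group. Each point is 1 library; most libraries with high lymphocyte sums have high Scd1, 1 DT 30 DPA library at 170.1 CPM lies apart at a sum of 159 CPM, and the 4 highest Elovl6 values are all in libraries with more than 500 CPM of enterocyte markers.

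At 10 weeks the diet comparison within DT mice (DT HFD against DT SD) called 6 of the 30 genes higher and 1 lower, beside 23.5% of all genes (15% higher, 8.46% lower). Of the 30, 15 were above 0 (49.2% of all genes) and 10 had an unadjusted p under 0.05 (38.9%). The median log2 fold change was 0.03, against -0.01 for all genes. These shares, and those of the calls, are near those of all genes. The 6 were Idi1 and Mvd of the mevalonate steps, Cyp51 and Hsd17b7 of the later steps, the transcription factor Srebf2 and Scd1, and the gene that fell was Insig1. Groups did not overlap for 8 genes that were higher and 8 that were lower, against 20.7% and 18.4% of all genes.

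Idi1 was at 28.1, 30.1, 27.4 and 28.7 CPM in DT SD and at 46.1, 72.5 and 60.7 CPM in DT HFD, a 2.09-fold rise (log2 1.06, SE 0.22, adjusted p = 0.00459). Srebf2 rose from 62.4, 86.8, 65.7 and 94.7 CPM to 123, 158 and 141 CPM (0.86, SE 0.18, adjusted p = 0.00463). Cyp51, the lanosterol demethylase, rose from 36.4, 37.7, 36.5 and 28.0 CPM to 47.8, 62.3 and 54.4 CPM (0.66, SE 0.17, adjusted p = 0.00916). All 3 were without overlap, and replicate 2 was the highest DT HFD library. In CPM their SD was larger in DT HFD than in DT SD. For Srebf2 it was 17.2 against 15.8 CPM, beside means of 140.7 and 77.4 CPM. Mvd, of low abundance, read 4.51, 2.95, 4.97 and 5.09 CPM and then 7.71, 9.77 and 9.92 CPM (1.06, SE 0.30, adjusted p = 0.0156). Insig1 fell from 113, 90.7, 104 and 105 CPM to 70.2, 52.5 and 68.2 CPM (-0.70, SE 0.18, adjusted p = 0.00887). The transcripts of Srebf2 and Insig1 thus moved in opposite directions, and SREBP activity was not measured.

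Scd1 passed at 1.04 (SE 0.38, adjusted p = 0.0452), from 57.2, 139, 49.8 and 173 CPM to 168, 249 and 229 CPM, where the lowest DT HFD library lay below the highest DT SD one. Hsd17b7 passed at 0.89 (SE 0.33, adjusted p = 0.0487). The other 23 genes did not, among them Hmgcs1, at 68.2, 64.1, 59.5 and 65.3 CPM and then 75.0, 79.9 and 78.6 CPM (0.28, SE 0.27, adjusted p = 0.457), which did not overlap. For Sqle the values were 71.5, 64.3, 73.5 and 67.3 CPM and 49.8, 40.9 and 55.7 CPM (-0.50, SE 0.25, adjusted p = 0.137), also apart. Srebf1 was at 71.8, 75.8, 63.6 and 79.8 CPM and 53.7, 44.6 and 60.2 CPM (-0.46, SE 0.21, adjusted p = 0.103), opposite in sign to Srebf2. Scd2 was at 282, 247, 239 and 306 CPM and 154, 119 and 217 CPM (-0.71, SE 0.32, adjusted p = 0.103), opposite in sign to Scd1. Fasn was at 66.1, 69.1, 64.8 and 69.7 CPM and 67.1, 89.2 and 83.4 CPM (0.24, SE 0.15, adjusted p = 0.239).

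**Figure D4:**
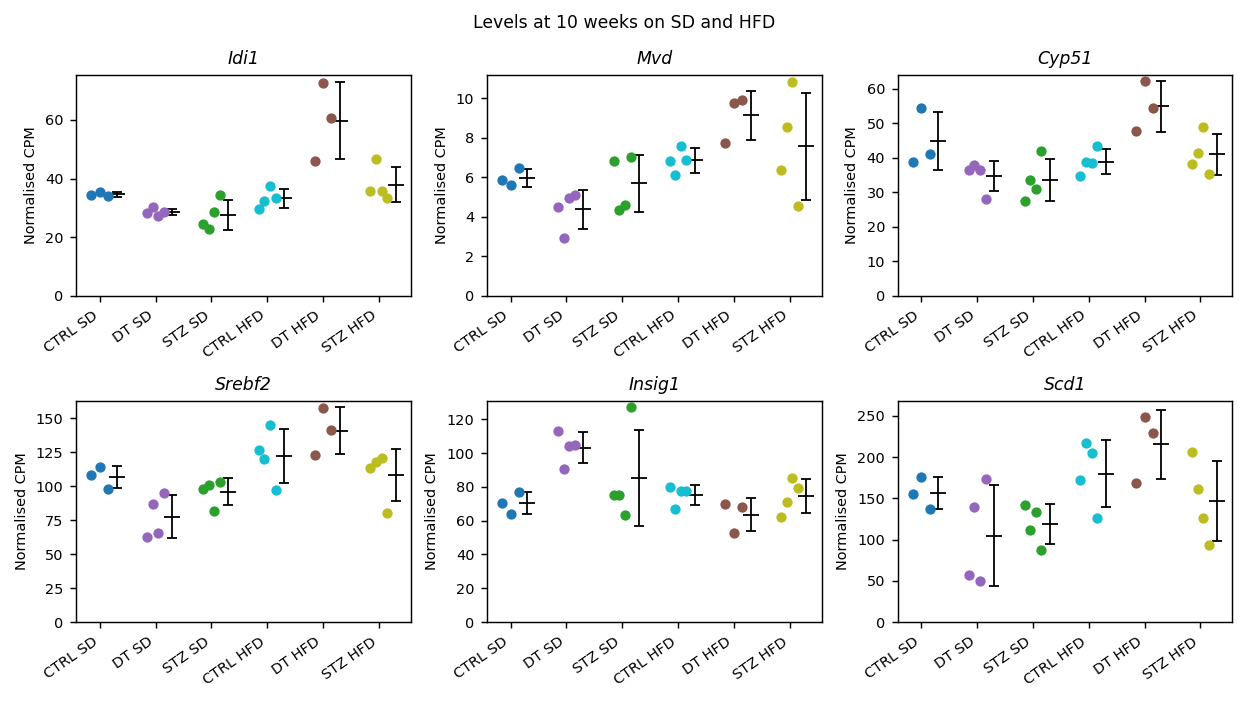
Levels (CPM, linear axis from 0) of the 6 genes with the smallest adjusted p between DT HFD and DT SD, in the 6 groups at 10 weeks; points are libraries, bars are mean and SD. DT HFD points lie above all DT SD points for Idi1, Mvd, Cyp51 and Srebf2 and below them for Insig1, and the Scd1 ranges overlap.

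The cells of the DT HFD and DT SD islets also differed. Beta cell markers summed to 29716 to 110513 CPM in DT HFD and 230253 to 252213 CPM in DT SD, with 5 of 8 called lower. Acinar markers summed to 6439 to 18418 CPM in DT HFD and 36508 to 158556 CPM in DT SD. Of these, 1 of 8 was called lower and 0 higher. The 3 cell cycle markers Mki67, Top2a and Birc5 were all called higher (139.6 to 657.0 CPM against 13.8 to 74.5 CPM), as were 3 of 5 lymphocyte markers (853.8 to 1495 CPM against 52.1 to 509.4 CPM) and 5 of 8 enterocyte markers, which summed to 2482 CPM in DT HFD replicate 1 and at most 11.7 CPM in the other DT HFD libraries. Without DT HFD replicate 2, which had the lowest beta cell and the highest cell cycle sum, 0 of the 30 genes and 0 of all genes were called. The log2 fold changes of the 7 genes then lay between -0.58 for Insig1 and 1.01 for Mvd, with adjusted p from 0.0946 to 0.20. Without the libraries that hold RNA of neighbouring tissue there were 11 calls, 7 higher and 4 lower, beside 36.4% of all genes. Of these groups that setting leaves out DT HFD replicate 1 and keeps every DT SD library, so the acinar difference stays. The part of cell makeup in these differences was not tested.

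**Figure D5:**
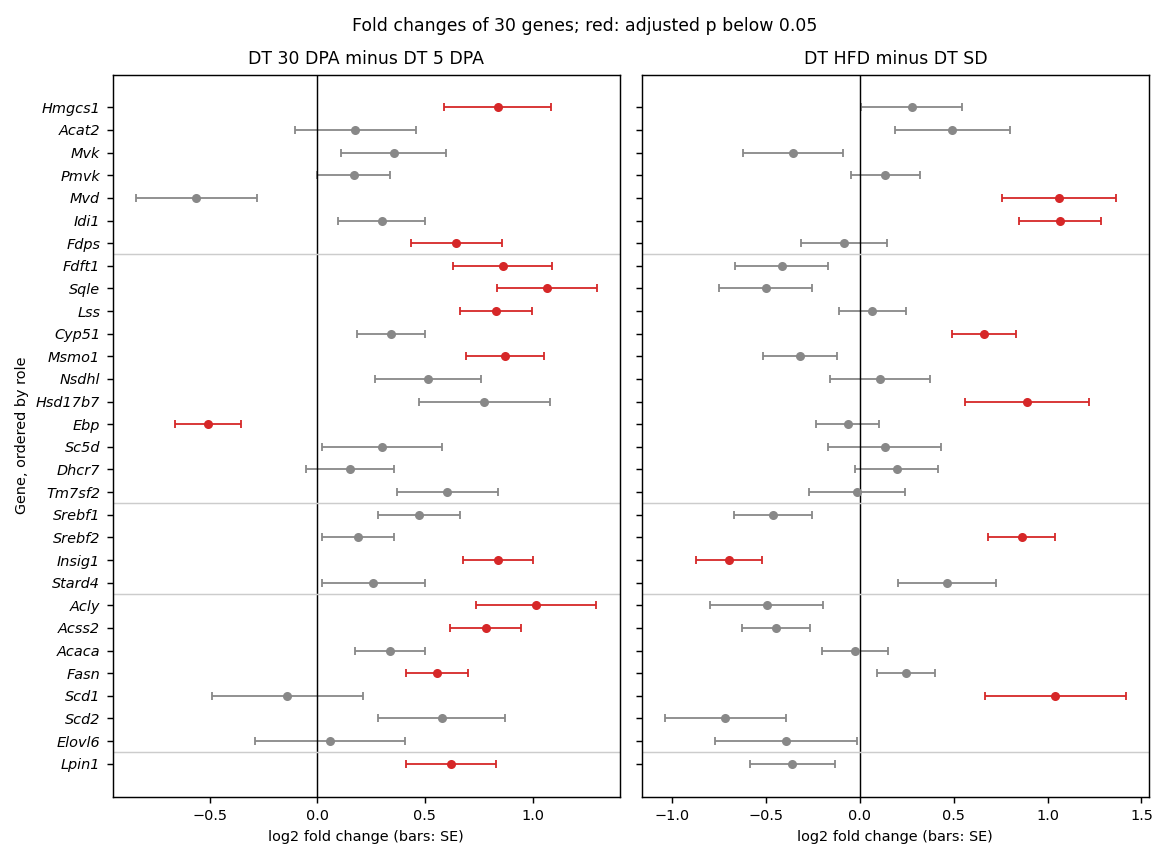
Log2 fold changes of the 30 genes (points) with their SE (bars) from 5 to 30 days after DT (left) and from SD to HFD in DT mice at 10 weeks (right); red marks an adjusted p below 0.05. On the left 27 points lie right of 0, on the right they fall on both sides, and Insig1 is red in both panels with opposite signs.

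In the comparisons with 10-week controls edgeR's quasi-likelihood test over all libraries called 0 of the 30 genes, and DESeq2 called 1, Idi1, in DT HFD against CTRL HFD. DT SD against CTRL SD had 3 of 30 at an unadjusted p under 0.05 (0.0341% of all genes were called with adjustment and 7.95% without). Insig1 came nearest, at 70.3, 64.3 and 77.2 CPM in CTRL SD and 90.7 to 113 CPM in DT SD, without overlap (0.55, SE 0.18, adjusted p = 0.402). STZ SD against CTRL SD had 5 of 30 unadjusted (0.00568% and 11.3% of all genes), led by Scd2, at 274, 253 and 237 CPM in CTRL SD and 149, 118, 103 and 167 CPM in STZ SD (-0.93, SE 0.32, adjusted p = 0.179; -1.22 and 0.208 without libraries holding RNA of neighbouring tissue). DESeq2 also called 0 in both.

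With HFD, DT HFD against CTRL HFD had 4 of 30 unadjusted (0.00568% and 11.9% of all genes). Idi1, at 29.6, 32.4, 37.3 and 33.4 CPM in CTRL HFD, was lower there than in all 3 DT HFD libraries (0.85, SE 0.22, adjusted p = 0.272). DESeq2 called it (adjusted p = 0.0420), as did the fit without libraries holding RNA of neighbouring tissue (adjusted p = 0.0124, beside 5.35% of all genes). STZ HFD against CTRL HFD had 4 of 30 unadjusted (0.471% and 13.7% of all genes), with Acaca nearest (-0.45, SE 0.16, adjusted p = 0.196), and DESeq2 called 0. CTRL HFD against CTRL SD had 0 of 30 even unadjusted, beside 0% and 2.49% of all genes, with log2 fold changes from -0.51 to 0.42.

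Whether diet changed the response to DT was asked with the interaction term, the DT difference on HFD minus that on SD. None of the 30 genes passed (0% of all genes), and 5 had an unadjusted p under 0.05 against 15.6% of all. The term was 1.13 for Idi1 and -0.79 for Insig1 (log2; adjusted p = 0.282 for both), and both were called, with 1 further gene, when libraries with RNA of neighbouring tissue were left out (adjusted p = 0.0172 and 0.0403, beside 2.02% of all genes). So the diet difference seen within DT mice was not shown to differ from that in controls. For STZ the interaction called 0 of 30 (0% of all genes), with 2 of 30 unadjusted against 6.6%.

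STZ HFD against STZ SD gave 0 calls of 30 with edgeR beside 0.136% of all genes (3 unadjusted, against 13%). Elovl6 had a log2 change of -1.33 (SE 0.36, adjusted p = 0.0800), and the highest STZ SD values were those of the 2 libraries with enterocyte markers given above. It was -0.14 without libraries holding RNA of neighbouring tissue. DESeq2's Wald test called Elovl6 (adjusted p = 0.00987), and edgeR called it without STZ SD replicate 2 or 3 (adjusted p = 0.0180 and 0.00706). Between the toxins, STZ SD against DT SD called 0 of 30 beside 2.56% of all genes (5 unadjusted, against 19.4%), with Scd2 nearest (-1.0, SE 0.30, adjusted p = 0.0626). DESeq2 called Scd2 there (adjusted p = 0.0160). STZ HFD against DT HFD called 0 of 30 beside 0.341% of all genes (6 unadjusted, against 15.6%), with Hsd17b7 nearest (-1.0, SE 0.33, adjusted p = 0.140).

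In order of their group means, Insig1 was lowest at 51.5 CPM (DT 5 DPA) and 53.7 CPM (CTRL), between 63.6 and 85.2 CPM in DT HFD, CTRL SD, STZ HFD, CTRL HFD and STZ SD, and highest at 92.1 CPM (DT 30 DPA) and 103.2 CPM (DT SD). Neighbours in that order overlapped in their libraries. Across the same 9 groups Srebf2 ran from 77.4 CPM (DT SD) to 140.7 CPM (DT HFD), and Hmgcs1 from 55.9 CPM (STZ SD) to 128.0 CPM (DT 30 DPA), where replicate 2 held 249.9 CPM. Sqle was lowest in DT 5 DPA and CTRL (40.3 and 41.1 CPM) and highest in DT 30 DPA (84.3 CPM), with CTRL SD and DT SD next (71.8 and 69.1 CPM).

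The neighbouring genes of lipid handling, 36 outside the 30 and all 36 tested, gave 9 genes that rose and 9 that fell from 5 to 30 days, with a median of 0.06, where 16.5% of all genes rose and 13.9% fell. Without DT 30 DPA replicate 2 there were 5 and 9, and without libraries holding RNA of neighbouring tissue 0 and 5 (0.665% and 4.71% of all genes). Of 10 genes of cholesterol efflux, storage and lysosomal release 7 fell and 0 rose; 4 fell without those libraries. Soat1, which esterifies cholesterol for storage, fell from 58.9 ± 11.6 CPM to 23.6 ± 1.90 CPM (SD, n = 4 each; log2 fold change -1.32, SE 0.18, adjusted p = 5.86e-06). Npc2, which carries cholesterol out of lysosomes, fell from 251 ± 53.0 CPM to 126 ± 9.23 CPM (log2 fold change -1.0, adjusted p = 1.04e-05), and the efflux transporter Abcg1 fell by 0.50 (adjusted p = 0.000816). Both had been called higher at 5 days against CTRL, as had Soat1 (0.86 for Npc2, 0.47 for Abcg1 and 0.73 for Soat1). They were the 3 calls among the 36 in that comparison, or 8.33%, where 3.8% of all genes were called higher. These genes are also known to be expressed in macrophages, and the macrophage markers given above moved with them; their part was not tested. In SREBP processing and in the isoprenoid branch 3 of 4 genes each rose and 0 fell, against 0 of 4 each without libraries holding RNA of neighbouring tissue. No difference between these lists was tested. Elovl1, which lengthens very long fatty acids, fell by 0.99 (adjusted p = 0.000656).

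For DT HFD against DT SD, 4 of the 36 rose and 3 fell, beside 15% and 8.46% of all genes. Abcg1 fell by 0.51 (adjusted p = 0.00505) and Insig2, the partner of Insig1 in holding SREBP, fell by 0.59 (adjusted p = 0.00621). Nr1h2, which encodes the oxysterol receptor LXR beta, rose by 0.51 (adjusted p = 0.00595), and Soat1 rose by 0.61 (adjusted p = 0.0215). All 4 calls were lost without DT HFD replicate 2. STZ SD against DT SD called 6 of 36 higher and 0 lower beside 2.56% of all genes, among them the triglyceride enzymes Dgat2 (4.22, adjusted p = 0.0272) and Agpat2 (1.96, adjusted p = 0.0302), Nr1h2 (0.50, adjusted p = 0.0250) and Lpin2 (1.11, adjusted p = 0.0262). Without libraries holding RNA of neighbouring tissue, Dgat2 stood at 0.52, Agpat2 at 0.18, Lpin2 at 0.24 and Nr1h2 at 0.38, and none passed. The count was also 0 without STZ SD replicate 1 or 4, or DT SD replicate 1, 2 or 3, and 10 without STZ SD replicate 2 or 3. Shares of all genes called in those fits are not given here, so these counts do not set the 36 apart from all genes. In the other comparisons of 2 groups 0 of the 36 were called.

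Close copies and overlapping genes limit single values. Acat2, the acetyl-CoA thiolase, has a near copy, Acat3, and Idi1 has Idi2, and the counting could split reads between them. In GENCODE M21, 11 of the 30 genes share exonic bases with another annotated gene, 4 of them more than 10% (Fdps, Fdft1, Hmgcs1 and Tm7sf2).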

How the data were processed

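Bulk RNA-seq of islets gave 1 deposited table. RNeasy Mini served for extraction and QIAseq stranded mRNA for the libraries, per the labels' protocols; the genome build mm10 is from the submitters' processing notes. Not given in the sources used here are the aligner, the counter, its strand setting and the annotation. Per the file headers, the authors deposited total counts per gene, and all tests used these counts. The authors' deposited TPM values served only to rank levels between genes. Deposited RPKM values were not used, nor was a deposited column headed CPM, a score whose sum differs from that of true CPM. All 34 libraries were matched to their columns by label, and 0 columns belonged to other samples.

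Genes were filtered with filterByExpr (count minimum 10, total 15) in edgeR 4.0.16 (R 4.3.3). TMM scaling and 1 robust quasi-likelihood fit over 33 libraries with group as the factor gave 14 contrasts; adjusted p-values are Benjamini-Hochberg over 17616 genes, called under 0.05. Prior degrees of freedom were 1.63 to 3.11. The test was run first on simulated counts with known changes. CPM in the text use library sizes scaled by TMM. The 30 genes, the 36 related genes and 13 marker lists (1 of them not reported here) were chosen with earlier results of these data known. Library values are given for up to 6 called genes with the smallest adjusted p per comparison and for Hmgcs1, Sqle, Insig1, Srebf1, Srebf2, Fasn, Scd1 and Scd2; of the related genes up to 4 per comparison are named. Genes outside this rule are named where they come nearest to a call or were singled out after their values were seen. Positions and overlaps are from GENCODE M21 (48349 of 48709 identifiers matched). Alternatives were DESeq2 size factors, no filter on low counts, the replicate number as a block, the compared groups alone, omission of libraries with RNA of neighbouring tissue (enterocyte sum over 500 CPM or acinar markers over 20% of counts), omission of each library, and the DESeq2 1.42.0 Wald test.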

Additional observations from a re-analysis of the deposited data

Results flagged for a closer look

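Within groups of 4 libraries, 180 pairs of gene and group were examined for a library far from the other 3 (Dixon's 95% criterion, which chance meets in about 5% of groups), and 8 met it. DT 30 DPA replicate 2 gave 4 of them. Hmgcs1 stood at 249.9 CPM there, against 72.4 to 98.4 CPM in the other replicates. Acat2, the cytosolic thiolase, stood at 30.9 CPM against 9.14 to 12.5 CPM. Acss2 reached 35.6 CPM against 23.6 to 25.3 CPM, and Acaca 45.4 CPM against 35.9 to 36.3 CPM. In DT 30 DPA replicate 4, Acly was at 1094 CPM against 801 to 821 CPM. In DT SD replicate 4, Cyp51 was low, at 28.0 CPM against 36.4 to 37.7 CPM. In STZ SD replicate 4, Dhcr7, the last reductase of cholesterol synthesis, was at 18.7 CPM against 12.8 to 13.7 CPM. In CTRL HFD replicate 5, Tm7sf2, a sterol reductase, was at 10.8 CPM against 5.37 to 6.09 CPM.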

How the results depend on the processing

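No fold change of a called gene changed sign in any setting tried. From 5 to 30 days Scd2 (log2 fold change 0.58) was at -0.29 without libraries holding RNA of neighbouring tissue, and Scd1 (-0.14) lay between -0.46 (without DT 30 DPA replicate 2) and 0.029 (without DT 30 DPA replicate 4) with 1 library left out; neither gene was called in these settings. DESeq2 size factors gave 2 of the 30 genes for DT 30 DPA against CTRL, in place of 1. With no filter on low counts, and likewise with the compared groups alone, 0 genes were called for DT 5 DPA and for DT 30 DPA against CTRL, in place of 1 each. DESeq2's Wald test called 11 for DT 30 DPA against CTRL, and 1 each for DT HFD against CTRL HFD, STZ HFD against STZ SD and STZ SD against DT SD, in place of 0. Without libraries holding RNA of neighbouring tissue there were 0 for DT 5 DPA and for DT 30 DPA against CTRL, 1 for DT 30 DPA against DT 5 DPA, 2 for DT HFD against CTRL HFD, 11 for DT HFD against DT SD and 3 for the interaction of DT and diet; this leaves 1 DT 5 DPA library, assumed to vary like the other groups. Leaving out 1 library at a time gave 0 to 2 for DT 5 DPA against CTRL, 0 to 14 for DT 30 DPA against CTRL, 9 to 14 for DT 30 DPA against DT 5 DPA, 0 to 7 for DT HFD against DT SD and 0 to 1 for STZ HFD against STZ SD (1 without STZ SD replicate 2 or 3). The share of all genes called also moved between settings, as given above for some of them. These counts alone therefore do not set the 30 genes apart from all genes. The cause of the changes was not tested, nor was the part of the smaller number of samples in them.

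With the replicate number as a block, 0 of the 30 genes were called for DT 30 DPA against CTRL. For DT 30 DPA against DT 5 DPA 13 were called (12 higher, 1 lower). Shares of all genes called in this fit are not given here, so the same limit holds. Replicate numbers did not pair the libraries: deviations of same-numbered libraries had a median correlation of 0.011 over 115 pairs, 37 of them above 0.1, and 8 of 33 libraries correlated best with their own number. Precision is limited by the 3 or 4 libraries a group. Low counts of Hsd17b7, Mvd and Tm7sf2 limit their values.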

Other observations

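The library that entered no comparison has CTRL HFD in its title, as replicate 1, but DT as treatment. It held 70.2 CPM of Idi1, 68.2 CPM of Cyp51, 63.8 CPM of Fdps, 78.8 CPM of Hmgcs1, 79.0 CPM of Insig1 and 130.9 CPM of Srebf2. In the CTRL HFD libraries Idi1 lay between 29.6 and 37.3 CPM and Cyp51 between 34.5 and 43.3 CPM. In the DT HFD libraries they lay between 46.1 and 72.5 CPM and between 47.8 and 62.3 CPM. Insig1 lay between 66.6 and 80.2 CPM in CTRL HFD and between 52.5 and 70.2 CPM in DT HFD. For Fdps these ranges were 31.5 to 40.5 CPM and 40.1 to 49.5 CPM. For Hmgcs1 they were 63.0 to 80.5 CPM and 75.0 to 79.9 CPM, and for Srebf2 96.9 to 144.9 CPM and 123.1 to 157.5 CPM. Of the fatty acid genes the library held 536.7 CPM of Acly and 161.6 CPM of Scd1. Acly ranged from 597.5 to 840.0 CPM in CTRL HFD and from 344.9 to 634.5 CPM in DT HFD. Scd1 ranged from 125.9 to 217.4 CPM and from 168.4 to 248.9 CPM. No group was assigned from these values.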
